A study of Mus musculus with 2 samples.

Results

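The protein genes of the mitochondrial ribosome were examined in liver RNA of Bglu3 congenic mice and of C57BL/6 apoE-/- control mice. They were chosen by symbol, as every gene with at least 1 probe set of a single gene symbol that begins with Mrpl or Mrps followed by a digit. This gave 76 of the 18193 genes named on the array, 47 for the large subunit (Mrpl) and 29 for the small subunit (Mrps), read by 156 probe sets.

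Each group is 1 array. The control mice are labelled C57BL/6 apoE-/-, so they lack apolipoprotein E, and the congenic mice are labelled Bglu3 congenic on C57BL/6. The Bglu3 locus, mapped for fasting glucose, lies on chromosome 1, and congenic mice carry a piece of donor chromosome on another strain's background. The labels do not give the donor strain, the ends of the stretch, the apoE genotype of the congenic mice, the sex, or the number of mice behind an array. Both groups are labelled hyperglycemic. They were given chow from weaning at 3 weeks and a Western diet from 6 weeks of age for 12 weeks. A single array stands for each group, so the spread between animals is unknown and no difference has a replicate check or a test.

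The mitochondrial ribosome translates the few messenger RNAs encoded in mitochondrial DNA, which specify core subunits of the respiratory chain and of ATP synthase. Its ribosomal RNAs come from mitochondrial DNA, but all of its proteins are encoded in the nucleus, made in the cytosol and imported. Some descend from proteins of the bacterial ribosome, and others are found only in mitochondria. Liver is rich in mitochondria, and hepatocytes depend on this translation for oxidative phosphorylation.

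Values are linear probe set intensities as deposited. A gene is represented by its brightest probe set, and a difference is log2(intensity + 5) of the congenic array minus the same of the control array. A gene counted as expressed when that probe set reached the median of its array on at least 1 array. Intensities of different probe sets depend on the probes and are not compared between genes.

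The array pair looked like liver. All 8 hepatocyte markers were expressed, with intensities from 2910.4 upwards. Their summed level was 80322 on the congenic array against 77657 on the control array. Their median log2 difference was 0.05 with 2 of 8 lower as deposited, but -0.02 with 5 of 8 lower after quantile normalization. Hnf4a was lower in all 4 of its expressed probe sets, between -0.59 and -0.26. The expressed immune markers were all higher in the congenic array. Summed levels were 4157 against 1266 for 8 neutrophil markers and 20190 against 13300 for 8 Kupffer cell markers. For the 5 expressed of 7 measured T, B and NK cell markers they were 1052 against 221. Most of the neutrophil sum came from S100a8 (1769 against 577) and S100a9 (1492 against 559). Elane had 36.8 against 30.3. Camp, Ltf, Mpo and Prtn3 passed the expression limit only through the congenic array, where they were higher. Cd3e, lower in the congenic array (7.44 against 10.8), and Cd79a, higher (13.9 against 3.74), were measured but below the expression limit. No marker of these lists was at 0. Their part in the values below was not tested, and in bulk tissue fewer cells of a type and less RNA per cell cannot be told apart.

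The mitochondrial ribosome was nearly level between the arrays. All 76 members were expressed, and all lay within 1.5-fold of equality. The median difference was 0.03 on the log2 scale, the quartiles were -0.05 and 0.12, and the extremes were Mrpl37 at -0.28 and Mrps11 at 0.37. The largest of these differences was a 1.29-fold one. No member passed 1.5-fold in either direction, compared with 12.9% of 12619 expressed genes (7.58% higher and 5.27% lower in the congenic array). Brighter genes scatter less on these arrays, and the dimmest member had a mean intensity of 104 over both arrays. Among the 7120 expressed genes at least that bright, 7.11% passed 1.5-fold (4.51% higher and 2.6% lower). The median absolute difference was 0.08 for the members, 0.16 for these bright genes and 0.21 for all expressed genes. Within 0.2 of 0 lay 66 of 76 members (86.8%), whereas 41.8% of the bright genes and 51.6% of all expressed genes lay farther out. This closeness was not particular to the members. Within 0.2 of 0 also lay 63 of 73 respiratory chain and ATP synthase genes (86.3%) and 19 of 23 protein import genes (82.6%). The bright genes share only a lower limit with the members, with a median intensity of 335 against 585 on the congenic array.

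**Figure D1:**
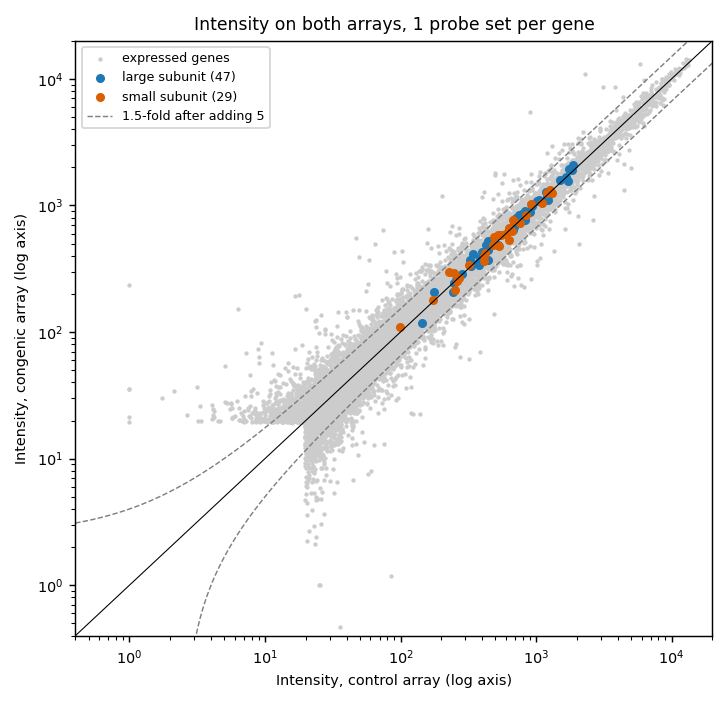
Intensity of each gene's brightest probe set on the control array (horizontal, log axis) and on the congenic array (vertical, log axis), with 47 large subunit genes in blue, 29 small subunit genes in orange and all 12619 expressed genes in grey. The solid line marks equality and the dashed lines 1.5-fold after 5 is added to each intensity; all 76 members sit between the dashed lines.

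Direction as a group depended on the scaling. As deposited, 26 members were lower in the congenic array and 50 higher, so 34.2% were lower against a background of 43.8% for all expressed genes and 41.9% for the bright ones. The number lower was 22 after median centring, 38 after quantile normalization, 39 after removal of an intensity trend, and 41 after centring on the median difference of expressed genes (0.04). Across these 5 scalings 34 members kept a positive and 22 a negative difference, while 20 changed sign. The largest absolute difference of any member under any of them was 0.39, so none reached 1.5-fold.

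The large and the small subunit had nearly the same median difference. The 47 large subunit genes had a median difference of 0.03, with quartiles of -0.03 and 0.11, and the 29 small subunit genes one of 0.03, with quartiles of -0.06 and 0.12. The medians differed by 0.0041. Medians this close to 0 changed sign with the scaling, and both were -0.02 after centring on the median of expressed genes. Lower in the congenic array were 16 of 47 large subunit genes (34.0%) and 10 of 29 small subunit genes (34.5%). The SD over genes was 0.13 for the large and 0.14 for the small subunit, which is a spread over genes and not over animals. Symbols do not always follow the structure, since Mrps18a and Mrps30 are proteins of the large subunit in the mammalian mitochondrial ribosome. Mrps18a had intensities of 581 against 525 (log2 difference 0.14) and Mrps30 of 363 against 411 (-0.18). Counting both with the large subunit left the difference of medians at 0.0041.

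**Figure D2:**
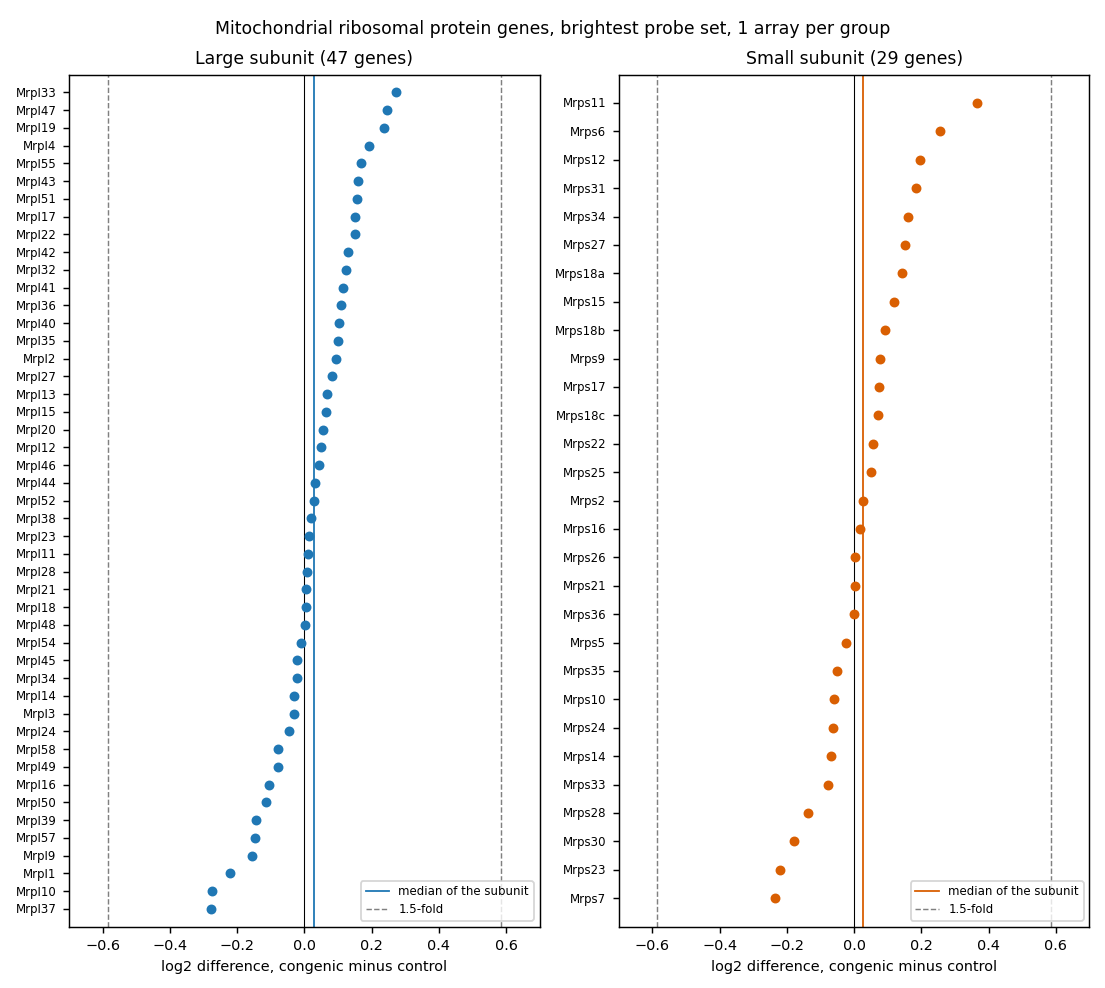
Log2 difference (congenic minus control, horizontal axis) of each member, 1 point per gene, ordered by size within the large (left) and the small subunit (right). The coloured vertical line is the median of the subunit (0.03 in both panels as deposited, -0.02 after centring on the median of expressed genes) and dashed lines mark 1.5-fold, which no point reaches between the extremes of -0.28 and 0.37.

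In the large subunit, the proteins around the peptidyl transferase centre, where amino acids are joined, were on both sides of 0. These are Mrpl2, Mrpl3, Mrpl4, Mrpl16 and Mrpl27, with a median difference of 0.08. Mrpl4, whose bacterial relative lines the tunnel of the growing chain, had 489.6 against 428 (log2 difference 0.19). Mrpl16, a relative of a bacterial protein near the bound transfer RNAs, had 766 against 825 (-0.11). The groups by role used here were put together with the values known, and describe position only.

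The stalk recruits the translation factors. Mrpl10, which anchors the stalk, had the second lowest difference of all members, with 367 against 445 (log2 difference -0.27). Its partner Mrpl12, the mobile part of the stalk that is also known to bind the mitochondrial RNA polymerase, had 1899 against 1835 (0.05). Mrpl11, at the base of the stalk, had 685 against 679.8 (0.01). Proteins of one structure thus had values on both sides of 0.

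The 7 genes put here under polypeptide exit and membrane anchor lay between -0.14 and 0.15 on the log2 difference scale. Mrpl47, whose bacterial relative is also at the tunnel exit, was not put in this group and had 0.25. Mrpl45, which anchors the ribosome at the inner membrane, had 404 against 411 (-0.02). Mrpl39 was lower with 1561 against 1724 (-0.14), and its other expressed probe set gave -0.11. Mrpl17 was higher with 1929 against 1738 (0.15), and its other expressed probe set gave 0.23. The remaining genes of the group were Mrpl22 (0.15), Mrpl23 (0.01), Mrpl24 (-0.04) and Mrpl44 (0.03).

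The genes of the central protuberance, the crest of the large subunit, were the most alike of the role groups by range. They ran from -0.08 for Mrpl58, a peptidyl-tRNA hydrolase built into the ribosome, to 0.10 for Mrpl40. Mrpl18, Mrpl38, Mrpl46 and Mrpl48 lay between them. As deposited 1 of these 6 was below 0, but 5 of 6 were after centring on the median of expressed genes.

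The highest large subunit gene was Mrpl33, with 417 against 344 (log2 difference 0.27). It was followed by Mrpl47, a relative of a bacterial protein at the tunnel exit, with 522 against 439 (0.25), and by Mrpl19 with 208 against 176 (0.24). Mrpl55, a protein found only in mitochondria, had 368 against 327 (0.17). The second expressed probe set of Mrpl47 was also higher (0.50), whereas the other expressed probe sets of Mrpl19 gave 0.04 and 0.0005.

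The lowest large subunit genes were Mrpl37, Mrpl10, Mrpl1, Mrpl9 and Mrpl57. Mrpl37, found only in mitochondria, had 117 against 143 (log2 difference -0.28). Mrpl1, whose bacterial relative forms the mobile arm at the exit site of transfer RNA, had 208 against 243 (-0.22), but its second probe set had 173 against 156 (0.15). Mrpl9 had probe sets at -0.15, -0.21 and -0.37, and Mrpl57 had 1097 against 1215 (-0.15), with 0.19 in its other probe set. All 3 expressed probe sets of Mrpl9 were lower, while Mrpl37 and Mrpl10 had 1 expressed probe set each.

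In the small subunit, the medians of the head and platform genes grouped here lay on different sides of 0. The 4 head genes had a median difference of -0.06. Mrps7, whose bacterial relative starts the assembly of the head, was the lowest small subunit gene with 536 against 631 (-0.23). Mrps10 was at -0.06 and Mrps14 at -0.07, but Mrps9 at 0.08 lay on the side of the platform genes. The 5 platform genes had a median of 0.12, and the median of the head stayed negative and that of the platform positive under all 5 scalings. With 4 and 5 genes, chosen with values known, this is a description of these genes and this array pair.

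Mrps11, a platform protein, was the highest of all members with 295 against 228 (log2 difference 0.37). Mrps6, also of the platform, had 295 against 246 (0.25), and its second probe set had 230.1 against 192 (0.26). Both probe sets of Mrps6 thus gave nearly the same difference, while the only other probe set of Mrps11 was not expressed. Mrps15 (0.12), Mrps18c (0.07) and Mrps21 (0.0030) made up the rest of the platform genes.

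Genes of the decoding site and of the messenger RNA path had a median at 0 to 2 decimals, on either side of 0 depending on the scaling. Mrps12, the relative of the bacterial protein that checks codon pairing, had 558 against 486 (log2 difference 0.20). Mrps2, Mrps5 and Mrps24 lay between -0.06 and 0.03. Both probe sets of Mrps24 gave -0.06, but they were read on the same 2 arrays, which is no repeat over animals.

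Among small subunit proteins found only in mitochondria, Mrps31 had 769 against 677 (log2 difference 0.18), Mrps34 had 1022 against 914 (0.16) and Mrps33 had 633 against 668 (-0.08). Mrps23 had 215 against 252 (-0.22) in its brightest probe set but 247 against 190.1 (0.37) in the next and 0.22 in the last, so its probe sets disagree in direction. Mrps28, which is of bacterial descent, had 481 against 529 (-0.14). Mrps36 had 268 on both arrays (0.00079); despite its symbol, its product is now placed in the oxoglutarate dehydrogenase complex.

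Members of different descent had similar differences. The 44 genes of bacterial descent had a median difference of 0.04 and the 28 found only in mitochondria one of 0.03, with 31.8% and 35.7% lower in the congenic array, all counted as deposited. Among members with high intensities, Mrpl51 of the large subunit had 2071 against 1858 (log2 difference 0.16). In the small subunit Mrps18c had 1321 against 1258 (0.07), Mrps14 had 1245 against 1306 (-0.07) and Mrps17 had 1260.0 against 1198 (0.07).

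Chromosome 1, where Bglu3 maps, carries 4 members, all near equality in their brightest probe sets. In their order along the chromosome they are Mrpl15, Mrps9, Mrpl44 and Mrps14. Mrpl15 had 984 against 941 (log2 difference 0.07), Mrps9 had 339 against 321 (0.08), Mrpl44 had 449 against 439 (0.03) and Mrps14 the values given above. By brightest probe set these 4 lay within 0.1 of 0, as did 42 of all 76 members (55.3%). Over all expressed probe sets, differences ran from 0.06 to 0.95 for Mrpl15 and from -0.08 to 0.32 for Mrps9. For Mrpl44 they ran from -0.21 to 0.03 and for Mrps14 from -0.07 to 0.0049. Whether any of these 4 genes lies in the congenic stretch is unknown here.

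The other probe sets of the same genes scattered more widely as they got dimmer. Of 156 member probe sets, 133 were expressed. The 76 used had a median absolute difference of 0.08, and the other 57 expressed ones of 0.17. With mean intensities from 300 to 1000, 63 probe sets lay between -0.27 and 0.27, and the 17 from 1000 upwards between -0.15 and 0.17. Below a mean intensity of 30, the 33 probe sets, 10 of them expressed, lay between -0.73 and 0.75, with a median of -0.02. Of the 34 members with several expressed probe sets, 15 had all of them on one side of 0 and 19 had them on both sides. The pooled SD between expressed probe sets of a member was 0.23 with dim ones included. It was 0.18 over probe sets with a mean intensity of 100 or more. The SD over the 76 members, by brightest probe set, was 0.13.

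Among expressed probe sets, 2 were higher and 3 lower by 1.5-fold or more, against a background of 13.3% of 20989 expressed probe sets in either direction. Mrpl15 held the largest difference, with 291 against 149 (log2 difference 0.95) in a probe set of the x_at type, which can bind other transcripts. Its 5 other expressed probe sets lay between 0.06 and 0.48, and the brightest of them (0.07) is also of the x_at type. So are the brightest probe sets of Mrpl11, Mrpl28, Mrpl44 and Mrpl48. Mrpl58 had a dim probe set at 19.5 against 9.60 (0.75) besides its brightest at 643 against 678 (-0.08). The 3 lower ones were dim probe sets of Mrpl34 (31.2 against 60.5, -0.86), Mrps25 (17.0 against 31.6, -0.73) and Mrpl11 (14.0 against 23.8, -0.60). The probe sets of Mrpl58, Mrps25 and Mrpl11 passed the expression limit only through the array where they were higher, so the limit favoured such differences. With the limit required on both arrays, a setting chosen after seeing the data, 1 of 128 member probe sets was higher and 1 lower by 1.5-fold, those of Mrpl15 and Mrpl34, against 8.74% of 18780 probe sets in either direction. The brightest probe sets of Mrpl34, Mrps25 and Mrpl11 lay at -0.02, 0.05 and 0.01. Mrps5 had 5 expressed probe sets between -0.19 and 0.33.

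**Figure D3:**
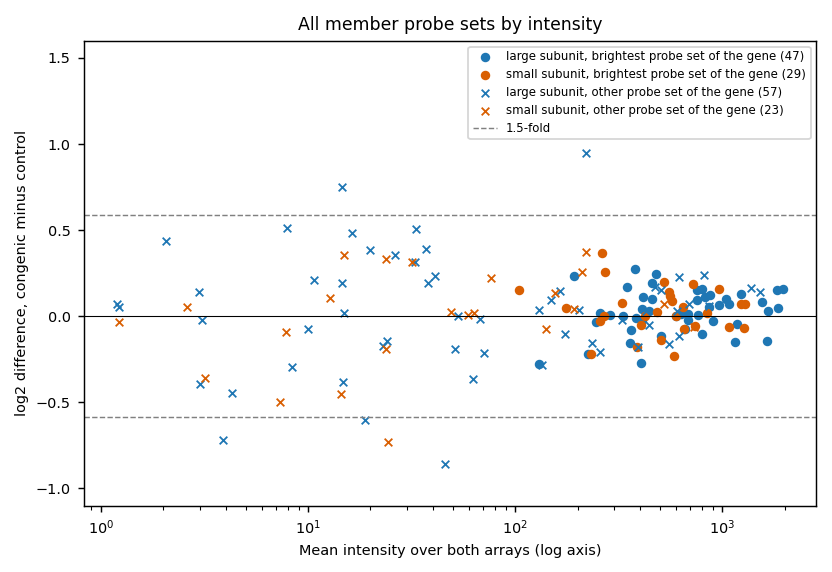
Log2 difference (congenic minus control, vertical axis) of all 156 member probe sets against mean intensity over both arrays (horizontal, log axis); circles are the brightest probe set of each gene and crosses the others, by subunit. Probe sets with a mean intensity of 300 or more lie within 0.27 of 0, those below 30 spread from -0.73 to 0.75, and the crosses past the dashed 1.5-fold lines belong to other than brightest probe sets.

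Among genes that work with the mitochondrial ribosome, translation factors had a median difference of -0.22, and 10 of 13 expressed genes were lower in the congenic array, against the background of 43.8%. None passed 1.5-fold as deposited, against 12.9% of all expressed genes, and 1 did after centring on the median of expressed genes. Guf1, a relative of a bacterial elongation GTPase, had 18.6 against 29.5 (log2 difference -0.55). Guf1 passed the expression limit only through the control array, where it was higher. Gfm2, which acts in ribosome recycling, had 71.2 against 100 (-0.46), and its second expressed probe set gave 0.29. Tufm, the mitochondrial elongation factor that brings in transfer RNA, had 382 against 480.2 (-0.33), and Mtif2, an initiation factor, had 233 against 321 (-0.45). Mtfmt, which formylates the initiator transfer RNA, was highest with 91.9 against 69.4 (0.38), followed by Slirp (0.09). The median was negative under all 5 scalings, from -0.19 to -0.28, and -0.09 with 8 of 13 lower when all probe sets of a gene were averaged.

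Mitochondrial aminoacyl-tRNA synthetases, which load transfer RNAs with amino acids, had a median difference of -0.15. Of 18 expressed ones 14 were lower, against 43.8% of all expressed genes. Wars2, for tryptophan, had 31.4 against 59.9 (log2 difference -0.84), although its other expressed probe set gave -0.05. Sars2, for serine, had 27.8 against 42.7 (-0.54) and Lars2, for leucine, had 131 against 189.5 (-0.52). Pars2, for proline, went the other way with 52.2 against 27.5 (0.82), and Qrsl1, of the complex that makes glutaminyl-tRNA, had 87.8 against 70.9 (0.29). Wars2 and Pars2 were the ones past 1.5-fold, 11.1% of the list against 12.9% of all expressed genes. The median was negative under all 5 scalings, and -0.14 with 11 of 18 lower when probe sets were averaged. The median intensity of their probe sets was 115 on the congenic array, in a range where probe sets of one gene scatter more, and the part of this in the result was not tested.

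Assembly factors of the mitochondrial ribosome had a median difference of -0.02, but a positive one after median centring. Of these factors 12 of 23 were lower, against 43.8% of all expressed genes. Past 1.5-fold were Mtg2, a GTPase of large subunit assembly, with 236 against 399 (log2 difference -0.74), and Ddx28, an RNA helicase of large subunit assembly, with 132 against 220.3 (-0.71). These 2 were 8.70% of the list, below the 12.9% of all expressed genes, and 1 gene passed when probe sets were averaged. The second expressed probe set of Mtg2 gave 0.02, while Ddx28 had 1 expressed probe set. The highest were Rpusd4, a pseudouridine synthase, at 131 against 92.5 (0.48), and Mpv17l2 at 153 against 118 (0.36). Among the proteins of the ribosome with other symbols, Ptcd3 was at -0.11 (with 0.12 in another probe set), Dap3 at -0.09, Gadd45gip1 at 0.03 and Chchd1 at 0.16, all within the range of the members.

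Genes of mitochondrial DNA upkeep and transcription had a median difference of -0.04. In this list 6 of 11 were lower and none past 1.5-fold, against 43.8% and 12.9% of all expressed genes. The median ran from -0.0095 after median centring to -0.09 after quantile normalization, and was -0.08 with 7 of 11 lower when probe sets were averaged. Tfb2m, a mitochondrial transcription factor, had 317 against 439.7 (-0.46) and the nuclease gene Mgme1 had 57.2 against 79.1 (-0.44). Tefm, an elongation factor of mitochondrial transcription, was highest at 172 against 133 (0.35), followed by Mterf1a (0.13). Mterf1a, with 21.1 against 18.9, passed the expression limit only through the congenic array, where it was higher. Of 9 expressed regulators of mitochondrial biogenesis, 6 were higher, with a median of 0.19, while 7084 of all 12619 expressed genes were higher. The coactivator gene Ppargc1b had 199.6 against 153 (0.38) and Nrf1, which encodes a transcription factor of ribosomal and respiratory genes in mitochondria, had 38.8 against 30.3 (0.31), with other probe sets down to -0.19. Ppargc1a (-0.14) and Pprc1 (-0.15) were lowest, and the list median was 0.04 when probe sets were averaged. Genes of protein import had a median of -0.02 (above 0 after median centring) and ran from Timm50 (-0.25) to Timm10 (0.23). Of them 12 of 23 were lower, against 43.8% of all expressed genes. Pmpcb, a subunit of the peptidase that removes import signals, was at -0.21, and Timm17a, of the inner membrane channel, at 0.22.

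Cytosolic ribosomal proteins and respiratory chain subunits lay on different sides of the mitochondrial ribosome. Of all expressed genes 43.8% were lower in the congenic array. The cytosolic ribosome had a median difference of 0.13 with 3 of 41 expressed genes lower. Respiratory chain and ATP synthase subunits had one of -0.09 with 58 of 73 lower. The members' median of 0.03 fell between them. This order held after quantile normalization and after removal of the intensity trend. The centrings shift all genes by nearly the same amount, so they could hardly have changed it. As deposited, the one gene past 1.5-fold in either list was Rpl27a, with 359 against 675 (log2 difference -0.90), while 12.9% of all expressed genes passed. Rpl39 (75.1 against 52.4, 0.48) and Rps6 (434 against 342, 0.34) were the highest cytosolic ones. The second lowest was Rps27 (61.7 against 63.5, -0.04). These genes and Rpl27a lay well below the list's median intensity of 5531 on the congenic array. In the respiratory list Uqcrc1 (-0.34) and Sdha (-0.32) were lowest, and Cox7c (0.43) and Cox7a2l (0.20) highest. Cox7c, with 24.8 against 17.1, passed the expression limit only through the congenic array, where it was higher. With 1 array per group the differences between these lists were not tested.

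**Figure D4:**
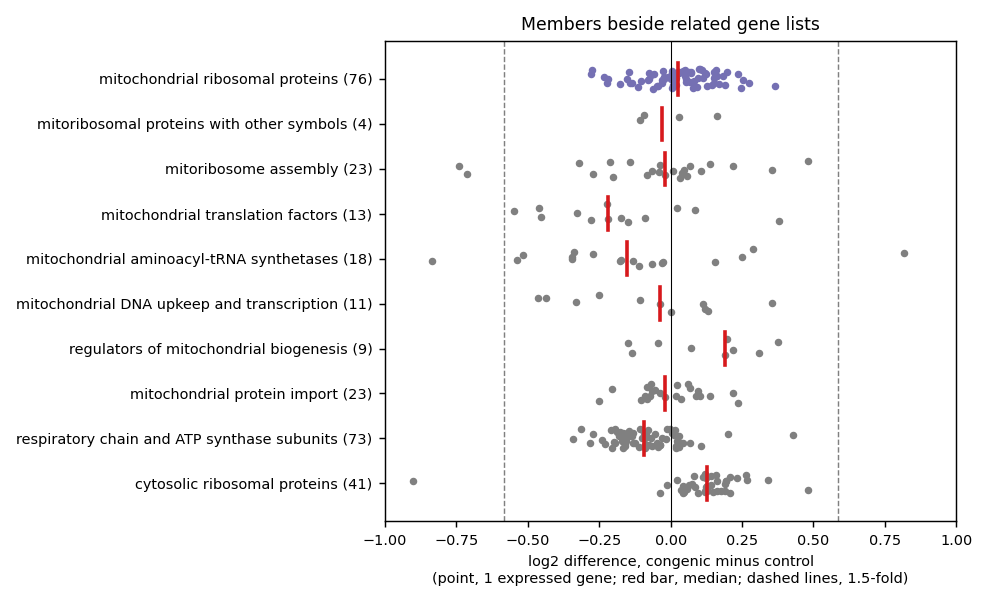
Log2 difference (congenic minus control, horizontal axis) of the 76 members (purple) and of expressed genes in 9 related lists (grey), 1 point per gene, with the median of each list as a red bar, dashed lines at 1.5-fold and vertical jitter for legibility. The members centre on 0.03 (-0.02 after centring on the median of expressed genes) and none passes 1.5-fold, the translation factors centre on -0.22, the aminoacyl-tRNA synthetases on -0.15, the respiratory chain on -0.09 and the cytosolic ribosome on 0.13.

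Some of these genes share a stretch of DNA with a neighbour that is read the other way. In the RefSeq promoter windows of build GRCm38.p6, which hold 250 bases before and 50 after a start site and matched 67 of the 76 members, 22 members had another gene's start site on the opposite strand within 500 bases upstream. This is 32.8%, compared with 10.9% of all 27025 genes with a window, 16.9% of expressed genes and 18.4% of 38 cytosolic ribosomal protein genes. One such pair joins the subunits, since Mrps11 and Mrpl46 start 42 bases apart. For 4 pairs the stretch between the start sites is shown in the direction of the member named first: 3 whose genes differed in the values given below, and Mrpl32 with Psma2, whose genes were alike. The 100 bases before the start of Mrpl9, a gene that was lower in all its probe sets, are added as a window with a full copy of a motif named below. Capitals mark copies of the motifs.
Mrps11 and Mrpl46, chr7:78783090-78783130, plus strand: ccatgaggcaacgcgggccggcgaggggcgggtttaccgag
Mrpl43 and Twnk, chr19:45006443-45006557, minus strand: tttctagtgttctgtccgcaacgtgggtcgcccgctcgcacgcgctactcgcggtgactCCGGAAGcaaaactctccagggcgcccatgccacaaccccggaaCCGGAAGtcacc
Mrps12 and Sars2, chr7:28741822-28741967, minus strand: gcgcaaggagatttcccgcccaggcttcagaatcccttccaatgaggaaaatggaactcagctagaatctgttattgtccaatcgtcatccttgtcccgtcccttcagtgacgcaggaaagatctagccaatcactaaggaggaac
Mrpl32 and Psma2, chr13:14613038-14613241, minus strand: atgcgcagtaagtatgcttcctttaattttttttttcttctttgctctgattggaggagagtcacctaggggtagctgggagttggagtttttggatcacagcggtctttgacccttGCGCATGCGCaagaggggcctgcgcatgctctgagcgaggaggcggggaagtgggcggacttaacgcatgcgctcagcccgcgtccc
Mrpl9, chr3:94443236-94443335, plus strand: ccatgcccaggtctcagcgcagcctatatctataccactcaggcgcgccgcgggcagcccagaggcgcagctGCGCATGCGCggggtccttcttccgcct

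Genes that share a start region differed from each other in some pairs. Mrps11 was at 0.37 and Mrpl46, which starts 42 bases away, at 0.04, with 415 against 403. Mrps12 was at 0.20 and Sars2, whose start lies 147 bases away, at -0.54. Mrpl43 had 843 against 753 (log2 difference 0.16), whereas Twnk, the helicase of mitochondrial DNA that starts 116 bases away, had 136 against 172 (-0.33). Mrpl32 (908 against 833, 0.12) and Psma2, a proteasome subunit gene (1818 against 1614, 0.17), were alike.

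Of 17 expressed neighbours outside the family, 9 were on the same side of 0 as their member. Lower in the congenic array were 8 of the 17, and 43.8% of all expressed genes. Past 1.5-fold were 1 of the 17 neighbours and 12.9% of all expressed genes. This neighbour was Ighmbp2, a helicase gene that starts 32 bases from Mrpl21, with 152 against 19.95 (log2 difference 2.65). Its 2 other expressed probe sets gave 0.40 and 0.28, but passed the expression limit only through the congenic array, where they were higher. Mrpl21 itself stood at 287 against 286 (0.0049). The lowest member, Mrpl37, and its neighbour Cyb5rl were alike at -0.28 and -0.26, as were Mrpl14 and Tmem63b at -0.03 and -0.02. Cyb5rl, with 18.9 against 23.6, passed the expression limit only through the control array, where it was higher.

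**Figure D5:**
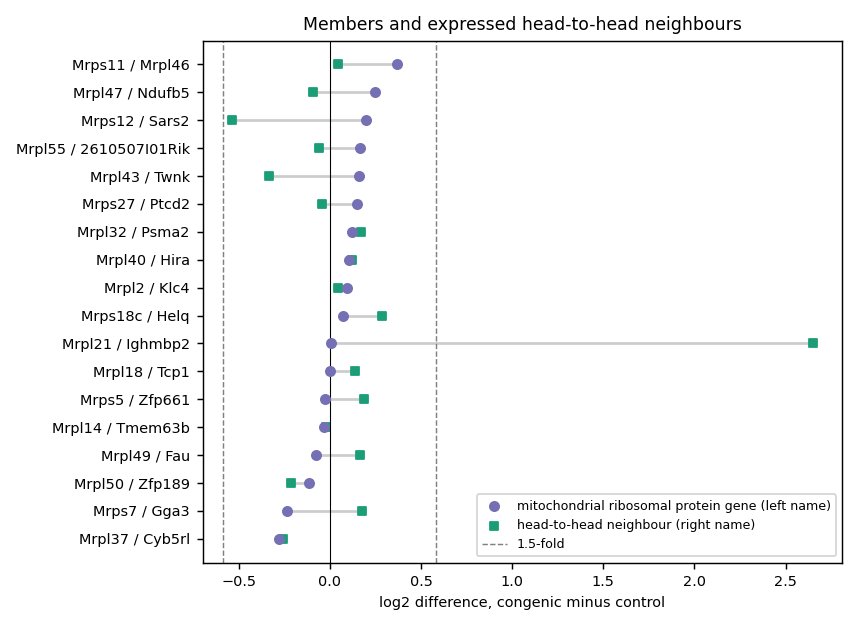
Log2 difference (congenic minus control, horizontal axis) of members (circles) and of expressed genes that start on the opposite strand within 500 bases upstream (squares), joined by a line per pair and ordered by the member; dashed lines mark 1.5-fold. Ighmbp2 at 2.65 is the only square past 1.5-fold while its partner Mrpl21 sits at 0.0049, and Sars2 and Mrps12 lie on different sides of 0.

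The promoter windows of members held motifs of known regulators of mitochondrial genes. The core recognised by nuclear respiratory factor 1, searched as GCGC, then any base, then TGCGC, occurred on either strand in 12 of 67 members (17.9%), compared with 5.19% of all genes with a window, 10.7% of expressed genes and 13.2% of cytosolic ribosomal protein genes. CCGGAAG, recognised by ETS family factors such as the GA-binding protein, occurred in 25 members (37.3%), 9.93% of all genes and 18.4% of expressed genes, but in 50% of cytosolic ribosomal protein genes. AAGATGGCG, recognised by YY1, occurred in 8 members (11.9%), 1.64% of all genes, 3.32% of expressed genes and 5.26% of cytosolic ribosomal protein genes. In the sequences above, Mrpl32 and Mrpl9 hold the first motif and Mrpl43 holds the second at 2 places, while none of the 3 lies between the start sites at Mrps12 or Mrps11. The end of CCGGAAG and the start of AAGATGGCG share the letters AAG, so their copies can overlap, and a match is a description of the letters in the window.

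As deposited, members with the first motif had a median difference of 0.0031 and those without it 0.03. For the second the medians were 0.03 with and 0.02 without. The third was held by both extremes of the family, Mrps11 (0.37) and Mrpl37 (-0.28), and the median was 0.12 over the 8 members with it and 0.01 over the 59 without it.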

How the data were processed

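Liver RNA was labelled with biotin from 8 µg of total RNA by the standard Affymetrix protocol, per the labels. The authors deposited linear intensity values of 45101 probe sets on 2 arrays, and the 64 control probe sets were left out. Their summarisation and scaling are not given in the sources used. Array medians were 19.3 (congenic) and 19.7 (control), and the values were used as deposited. The number of arrays limits the precision. The platform annotation gave 1 symbol to 34945 probe sets, several to 932 and none to 9160. Chromosomes came from the gene table of assembly GRCm38.p6.

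Python 3.11.15 with numpy 2.4.6 and pandas 2.3.3 gave log2 differences with a pseudocount of 5, which understates differences of dim genes. The procedure was tested on simulated data with planted shifts. Members, lists, roles and motifs were chosen with earlier results of these data known. Named genes are, per subunit, the 5 highest, 5 lowest and 3 brightest members, those on chromosome 1, the 3 with the widest range over probe sets, and Mrps18a and Mrps30. In related lists they are the 2 highest, 2 lowest and those past 1.5-fold. Others were named for their role, their start site or their probe sets after their values were seen. Alternatives changed the scaling, pseudocount, expression filter, probe set rule and subunit assignment.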

Additional observations from a re-analysis of the deposited data

How the results depend on the processing

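The median differences of all members, of each subunit and between subunits moved by less than 0.1 (log2) under every alternative tried, the median of all members ranging from -0.02 to 0.06 and the difference of the subunit medians from -0.0069 to 0.02. The counts changed with the probe set rule and the scaling. With each of 133 expressed probe sets as a value of its own, 47 were lower at any size, 2 were higher and 3 lower by 1.5-fold or more. With the brightest plain _at probe set, 1 of 62 members was higher by 1.5-fold or more. Centring on the median of expressed genes, added after seeing the data, gave 41 members lower in place of 26. Filters on expression changed no value, because all members passed each of them. No paired analysis was possible because each group is 1 array. Dim probe sets limit what can be read from single genes.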

Other observations

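Probe sets that pair a member's symbol with another gene's were kept out of the family values. All 4 lay between 0.02 and 0.13 on the log2 difference scale. The brighter probe set shared by Mrpl30 and Gm6238 had 1656 against 1514 (congenic against control, log2 difference 0.13), and the other had 903 against 893 (0.02). The probe set shared by Mrpl53 and Ccdc142 had 828 against 817 (0.02), and that shared by Mrps34 and Nme3 had 465 against 456 (0.03), while the probe set of Mrps34 alone gave 0.16.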
